A study of Mus musculus with 5 samples.

Results

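The genes described here are 4 surfactant protein genes, Sftpb, Sftpc, Sftpa1 and Sftpd, and Mat1a, which lies next to Sftpa1. They were taken as 3 windows of the deposited coordinates, read as mouse assembly mm9: chromosome 6 from 72240000 to 72284999 for Sftpb, chromosome 14 from 70900000 to 70939999 for Sftpc, and chromosome 14 from 41900000 to 42009999 for Mat1a, Sftpa1 and Sftpd. The windows hold 195 bins of 1 kb out of 2641885 in the chromosome extents. Chromatin bound by RNA polymerase II was immunoprecipitated and sequenced from lung, liver, spleen, kidney and brain. The mice were adults of the FVB strain, the labels name no treatment, and each tissue gave 1 library. The labels do not say whether a library came from 1 animal or a pool. The study's design concerns which promoters are active in which tissue. The windows were chosen with the reads and peaks of these libraries in view, so read counts and peak positions are given as a description with no test, and there is no replicate check.

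Pulmonary surfactant is a film of phospholipid and protein that lowers surface tension in the alveoli, and alveolar type II cells secrete it. The hydrophobic proteins SP-B (Sftpb) and SP-C (Sftpc) act in spreading and keeping that film. The collectins SP-A (Sftpa1) and SP-D (Sftpd) are lectins of innate defence that bind sugars on microbes. Mat1a encodes the catalytic subunit of the liver form of methionine adenosyltransferase, which makes S-adenosylmethionine, the methyl donor of the cell, and is known as a gene of adult hepatocytes. Polymerase II is bound at the promoters of active genes and along their bodies while they are transcribed.

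The promoters of Sftpb and Sftpa1 are shown as the members for which RefSeq promoter sequence on GRCm38.p6 was matched, 2 of the 5, and the 250 bases before the annotated start are printed 5′ to 3′. They lie at chr6:72304360-72304609 and chr14:41131538-41131787, both on the + strand. These positions are in another build than the reads and cannot be set against them. Capitals mark TATAA, the core of the TATA box, and CTCAAG, which contains the CAAG core bound by the lung transcription factor NKX2-1. The motifs were chosen after the sequences were seen.
Sftpb: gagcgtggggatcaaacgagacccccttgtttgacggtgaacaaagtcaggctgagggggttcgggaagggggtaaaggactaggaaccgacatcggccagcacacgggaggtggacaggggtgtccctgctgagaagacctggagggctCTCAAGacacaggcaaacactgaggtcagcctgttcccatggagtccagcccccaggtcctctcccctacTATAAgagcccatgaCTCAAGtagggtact
Sftpa1: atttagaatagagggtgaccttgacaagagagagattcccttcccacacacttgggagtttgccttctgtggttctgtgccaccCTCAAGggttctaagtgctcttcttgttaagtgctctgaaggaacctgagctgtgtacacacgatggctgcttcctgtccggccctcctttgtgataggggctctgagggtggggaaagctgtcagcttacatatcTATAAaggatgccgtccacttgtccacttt
In both promoters TATAA began at base -30 from the start. CTCAAG began at -100 and -15 in Sftpb and at -166 in Sftpa1. Searched on both strands over the same 250 bases, TATAA was present in 22.78% of 32851 mouse promoters, CTCAAG in 13.33%, and both in 3.248%. The search motifs do not overlap in either printed promoter.

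The libraries held 10292262 (brain) to 14964934 (liver) aligned reads. Read counts were divided by scaling factors from regions with peaks, of 1.13 (lung), 1.16 (liver), 1.08 (kidney), 1.03 (brain) and 0.666 (spleen). The low spleen factor raises all normalised spleen values, so that the mean of the spleen library over the genome was 7.54 normalised reads per kb while the lung, brain, kidney and liver means were 3.65, 3.80, 4.81 and 4.88. Levels are therefore also given as multiples of the library's own genome mean per kb, which does not depend on the factors. Bins with 10 or more reads in a library, and a normalised count 2 or more times that of every other library, were called led by that tissue. Over the genome, 744196 bins held at least 10 reads in some library, and 0.472% of them were led by lung, 3.03% by liver, 2.02% by brain and 17.0% by spleen. With scaling by total reads these shares were 2.24%, 3.82%, 5.84% and 4.26%. Neighbouring led bins of 1 tissue, with gaps of up to 2 bins, were joined into stretches. The stretches are named after the gene of the window, and their ends are set by the reads, not by gene annotation.

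Among the stretches named after the 4 surfactant genes, lung reads were densest in that of Sftpb. This lung-led stretch of 14 kb, from 72254000 to 72267999, held 1488 lung reads, against 205 in brain, 180 in liver, 166 in kidney and 134 in spleen. Lung stood alone as the high library, and the other 4 lay close to each other. In normalised reads per kb the stretch was at 94.4 in lung, 14.4 in spleen, 14.3 in brain, 11.1 in liver and 10.9 in kidney. The lung level was 6.57-fold over spleen, with a 95% exact conditional binomial interval of 5.50 to 7.90, and 8.52-fold over liver (7.30 to 10.0). Such intervals cover counting error only, and without molecular identifiers the reads need not be independent molecules. In whole tissue, a larger share of cells with polymerase on a gene and more polymerase per cell cannot be told apart. Against their own genome means, lung stood at 25.9 times, brain at 3.76, kidney and liver at 2.27 and spleen at 1.90 times. The Sftpb locus was thus above the library mean in each of the 5 tissues.

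All 14 bins of the Sftpb stretch were led by lung, and 11 of them held at least 20 lung reads at 4-fold or more over the next tissue, a call made in 0.173% of the 147779 bins of the genome with at least 20 reads in some library. Lung reads per bin ran from 44 to 175, with a median of 103.5. In the other libraries no bin of the stretch held more than 29 reads, so no bin of theirs reached the lowest lung bin. The bins were called for a lung lead, which favours such a gap. The lung profile had 3 crests. The bin from 72255000 held 175 lung reads and 8 to 27 in the other libraries, the bin from 72259000 held 138, and the bin from 72267000 held 156 against 8 to 13. The lung trough, at 44 reads, was the bin from 72264000. Both ends of the stretch were steep. The bin before it held 12 lung reads and the bin after it 32, which missed the call at 1.94-fold over brain.

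The authors' lung list had 21 peak positions in the Sftpb window, 15 of them in the stretch, at a median spacing of 875 bp. That is 467 lung peaks per Mb in the window, against 27.6 per Mb over the whole lung list. Brain and kidney had 5 positions each in the window, liver 2 and spleen 1. The lung position with the most reads was 72254901, with 106 lung reads within 250 bp and 4 to 13 in the other libraries. Next were the positions 72267501, with 93 lung reads, and 72265601, with 91, both near the far end. The brain list placed all 5 of its positions inside the lung-led stretch, where brain held 29 reads in its highest bin. Both strands were covered about evenly in the lung stretch, by 718 forward and 770 reverse reads. Reads sharing both position and strand with an earlier read made up 12.4% of the lung reads of the stretch. Their share was 7.16% in the whole lung library and 14.9% in the spleen reads of the stretch. Repeats raise both sides of a fold, so their part in the lung level was not measured. The fold was taken again with each position and strand counted once in every library. The lung fold over the next tissue in the whole window was then 3.10, against 3.21 (2.85 to 3.62) over spleen with all reads. After the genome mean of each library was subtracted, the fold over the next tissue was 7.57.

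**Figure D1:**
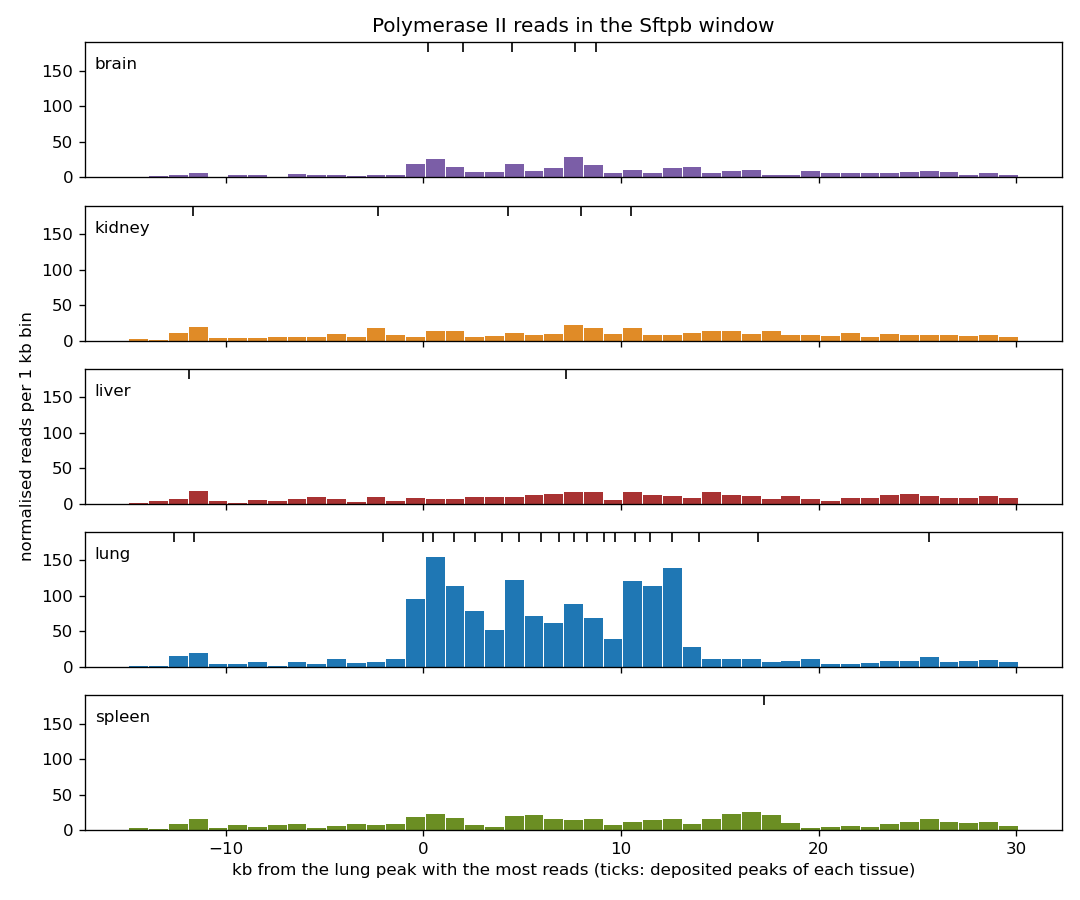
Normalised reads per 1 kb bin in the Sftpb window, with a panel per tissue on a common axis that starts at 0 and the distance in kb from the lung peak with the most reads. Ticks mark deposited peak positions of each tissue; the lung panel stands above all others over 14 bins and has 3 crests.

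Around Sftpc, lung polymerase covered a longer and more mixed stretch. From 70911000 to 70926999, over 16 kb, lung held 1220 reads, liver 302, brain 145, spleen 128 and kidney 124. Lung was again the highest library, and liver was the next rather than standing with the others. The normalised levels per kb were 67.7 in lung, 16.3 in liver, 12.0 in spleen, 8.83 in brain and 7.15 in kidney. Lung was 4.16-fold over liver (3.67 to 4.74), and stood at 18.6 times its own genome mean. Of the 16 bins 13 were led by lung, and 7 passed the 4-fold call. The last bin, from 70926000, held 22 lung reads and was joined across 2 bins that were not led.

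The last of the 16 liver peak positions of the window was 70920061. Up to the end of its bin, the 10 kb from 70911000 held 917 lung and 266 liver reads, 22.3 and 4.70 times the library means, a lung to liver ratio of 3.55 (3.10 to 4.09). The remaining 6 kb, from 70921000, held 303 lung and 36 liver reads, 12.3 and 1.06 times the means, and the ratio was 8.68 (6.13 to 12.6). The dividing point was picked from the liver list, so a lower liver share past it was fixed by that choice and the ratios are a description. In the bin from 70922000, lung held 97 reads, liver 4, kidney 6, brain 7 and spleen 12. In the bin from 70921000, lung held 80 and liver 11, and in the bin from 70923000 lung held 77 and liver 5. Lung was the only high library in these 3 bins, at 4.78-fold, 5.26-fold and 3.51-fold over spleen. In the next bin lung held 19 reads and spleen 16, and after normalisation spleen was the higher, at 24.0 against 16.9.

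The highest lung bins of the Sftpc window were not among these 3. They began at 70912000, 70913000 and 70916000, with 131, 129 and 107 lung reads and 24, 27 and 22 liver reads. In the order of coding genes on GRCm38, Sftpc lies between Bmp1, which encodes a procollagen protease, and Lgi3, a gene of the LGI family of secreted proteins known from brain. With no annotation of the files' build used here, reads of the stretch were not assigned to Sftpc or to a neighbour.

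Other tissues led elsewhere in the Sftpc window. The bin from 70908000 was led by liver, with 105 liver reads, 34 lung, 22 brain, 17 spleen and 6 kidney reads, 2.996-fold (2.02 to 4.55) over lung. On the other side, brain led from 70930000 to 70938999, with 348 brain reads against 171 in lung, 90 in spleen, 87 in liver and 60 in kidney. Brain was 2.23-fold over lung there (1.85 to 2.70), and 7 of 9 bins were led by brain. Lung had peak positions through all of the window, 36 in number, against 16 in liver, 11 in brain, 3 in spleen and 2 in kidney. Over the whole window the lung fold over the next tissue, liver, was 2.44 (2.24 to 2.66), lower than in the stretch.

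**Figure D2:**
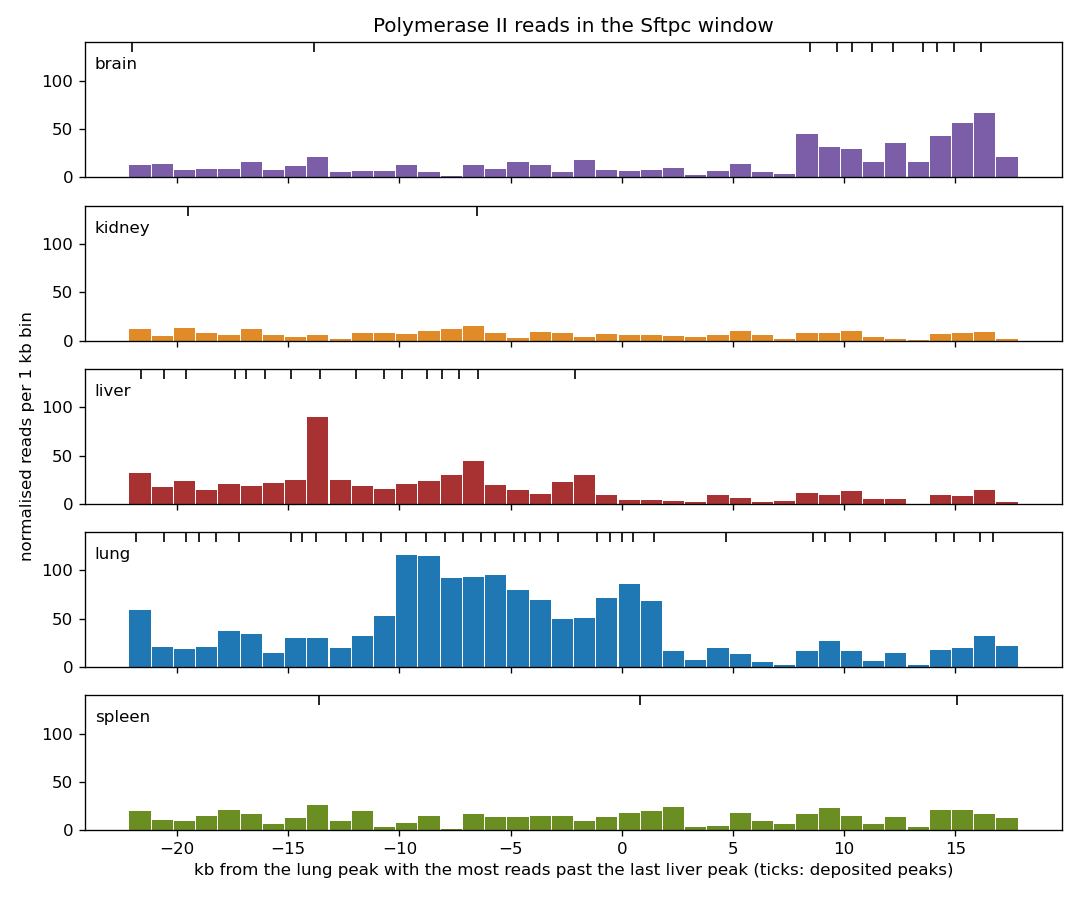
Normalised reads per 1 kb bin in the Sftpc window by tissue, on a common axis from 0, against the distance in kb from a lung peak past the last liver peak. Lung leads 13 of the 16 bins of the stretch in the middle, liver has its highest bin on the left side of the window, and brain is high on the right.

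The Mat1a stretch was led by liver instead of lung, and its density was the highest among the stretches named after the 5 genes. From 41918000 to 41939999, over 22 kb, liver held 4841 reads, against 194 in spleen, 145 in kidney, 140 in lung and 120 in brain. Liver was the only high library. The normalised levels per kb were 189.5 in liver, 13.2 in spleen, 6.08 in kidney, 5.65 in lung and 5.32 in brain. Liver stood at 38.8 times its own genome mean, while lung stood at 1.55, brain at 1.40, kidney at 1.26 and spleen at 1.75 times. The liver fold over spleen was 14.3 (12.4 to 16.6), and with spleen left out it was 31.2 over kidney. With scaling by total reads the fold over the next tissue was 22.1, and after subtraction of the genome means it was 32.5. The liver to lung ratio was 33.5 (28.4 to 40.0).

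All 22 bins were led by liver, and 21 passed the 4-fold call, which 2.82% of bins passed for liver over the genome. Liver reads per bin ran from 38 to 541 with a median of 200.5, and the highest bin of any other library, in spleen, held 27. The bin from 41924000 held 541 liver reads, 18 in kidney, 16 in spleen, 7 in brain and 2 in lung. Of 22580 liver-led bins in the genome, 125 held as many liver reads or more, this bin included. The bins from 41923000 and 41926000 held 435 and 401 liver reads and at most 8 in any other library. The stretch began abruptly, from 13 liver reads in the bin before it to 253 in its first bin. Of 30 liver peak positions in the window 18 lay in the stretch, at a median spacing of 1050 bp, and the position with the most liver reads within 250 bp, 305, was 41924511. Repeated reads made up 13.9% of the liver reads of the stretch, against 8.87% in the whole library, and 16.5% of its spleen reads. With each position and strand counted once in every library the fold over spleen was 14.6.

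Between Mat1a and Sftpa1 the leading library changed from liver to lung within 5 kb. The last liver-led bin, from 41939000, held 38 liver and 3 lung reads, a log2 ratio of lung over liver of -3.62. The first lung-led bin, from 41945000, held 95 lung and 10 liver reads, a log2 ratio of 3.29. The 5 bins between them held 45 liver, 30 lung, 30 spleen, 21 kidney and 13 brain reads in all. No library had a peak position in that gap, and their levels there lay between 0.667 times (brain) and 1.59 times (liver) the library mean. The gap was thus low in every tissue.

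The nearest peak regions on both sides, each a peak position or positions extended by 250 bp, describe the same reads. They were taken at the edges of the liver-led and lung-led stretches, so an exchange from liver to lung was built in. The region from 41938311 to 41938811 held 60 liver, 2 lung, 3 kidney, 3 spleen and 1 brain reads. The region from 41945056 to 41945696 held 56 lung, 7 liver, 11 brain, 10 spleen and 2 kidney reads. Of 12 brain reads, 8.33% (95% exact binomial interval 0.211% to 38.5%) lay on the Mat1a side, and of 13 spleen reads 23.1% (5.04% to 53.8%). The region on the Sftpa1 side is the wider and was merged from a lung and a brain position, which favours brain reads there. Kidney, with 5 reads in all, and spleen, whose interval includes equal shares, could not be placed at this depth. Over the whole stretches spleen was higher in Mat1a, at 13.2 normalised reads per kb, than in Sftpa1, at 9.002. The regions lay 6244 bases apart.

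Few places in these libraries had this arrangement. Over the genome 700 liver and 95 lung stretches had at least 5 led bins. In 1 place a liver stretch and a lung stretch of this size, with no other such stretch between them, lay within 10 kb of each other, and that place was Mat1a and Sftpa1. The limits of 5 bins and 10 kb were chosen after the data were seen, and the place is the one for which the genes were picked. Stretches over the genome were not called again with scaling by total reads. Under that scaling lung led 2.24% of tested bins rather than 0.472%, so the number of such places may depend on the scaling.

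**Figure D3:**
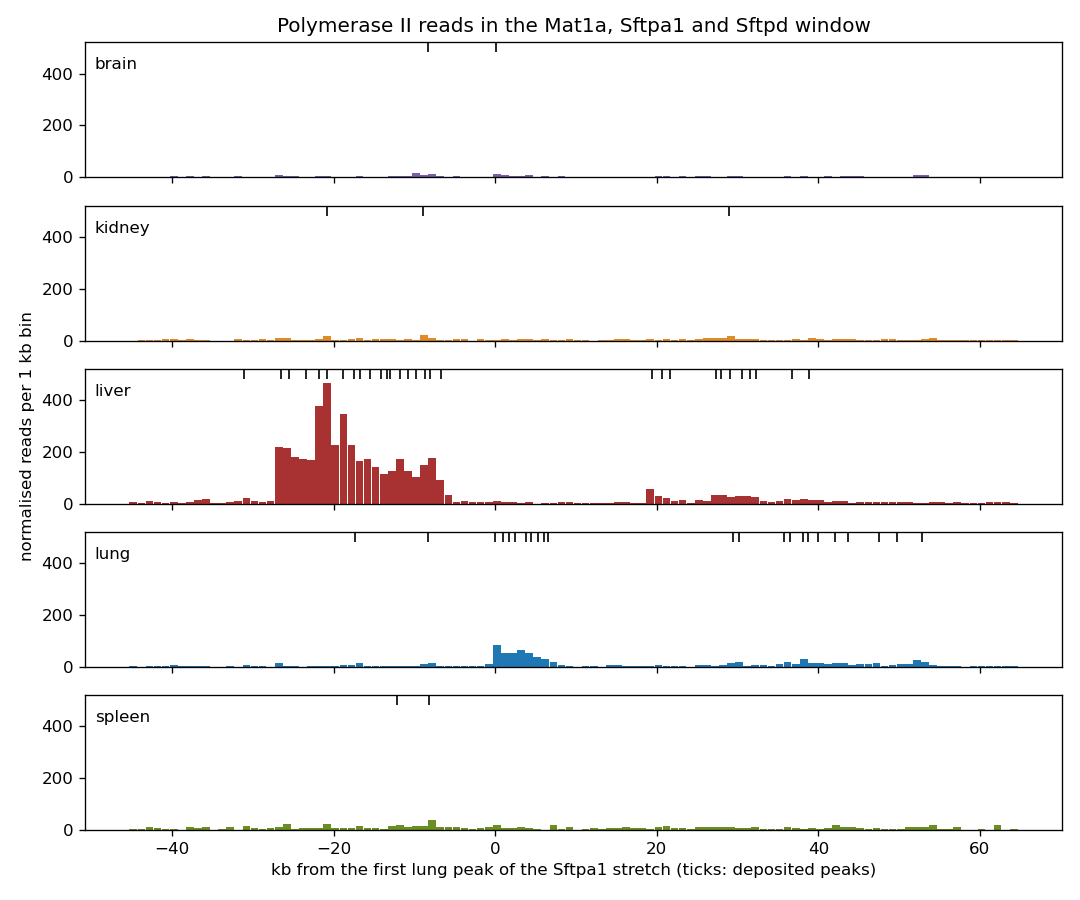
Normalised reads per 1 kb bin in the window of Mat1a, Sftpa1 and Sftpd by tissue, on a common axis from 0, against the distance in kb from the first lung peak of the Sftpa1 stretch. Liver is high over 22 bins on the left, lung over 7 bins from 0, and ticks mark deposited peaks.

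Sftpa1 carried a compact lung signal. The 7 kb from 41945000 to 41951999 held 428 lung reads, 48 in brain, 42 in spleen, 40 in liver and 34 in kidney. Lung was again the only high library. The normalised levels per kb were 54.3 in lung, 9.002 in spleen, 6.68 in brain, 4.92 in liver and 4.48 in kidney. Lung was 6.03-fold over spleen (4.39 to 8.49) and 11.0-fold over liver (7.97 to 15.7), or 17.5-fold over the next tissue after the genome mean of each library was subtracted. Against their own means, lung stood at 14.9 times and the other libraries at 0.931 to 1.76 times. All 7 bins were led by lung and all 7 passed the 4-fold call. Lung reads ran from 35 to 95 per bin, and no other library held more than 13 in a bin. The highest bin was the first, and the next 4 held 59, 62, 72 and 61 lung reads.

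Lung had 9 peak positions in the Sftpa1 stretch, brain 1 and the other tissues 0. The lung positions 41945306 and 41949056 held 43 lung reads each within 250 bp. Around the former, the median place of forward reads was -176 bases and that of reverse reads 171 bases, an offset of 347 bases. The offset with the most matches of both strands over chromosome 14 of the lung library was 310 bases. At the strongest Sftpb position, where positions crowd, the medians were 82 bases apart. At the Sftpc position 70922171 the reverse median lay before the forward one, an offset of -37 bases in lung. At the strongest Mat1a position the liver offset was 44.5 bases, against 186 bases over chromosome 14 of the liver library. RefSeq places Sftpa1 on the + strand, so the rise at the low end of the stretch lies on the side of its start in gene order, though no distance to the start was measured.

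Past Sftpa1, 12 kb from 41952000 were low, with 69 lung, 62 spleen, 57 liver, 40 kidney and 18 brain reads and no peak position in any list. Liver led again from 41964000 to 41968999, with 160 reads, 34 in spleen, 31 in kidney, 22 in lung and 19 in brain. The liver fold over spleen was 2.70 (1.86 to 4.04). A second liver-led stretch, from 41972000 to 41976999, held 177 liver reads, 60 in lung, 51 in kidney, 34 in spleen and 17 in brain. In gene order on GRCm38 the coding gene between Sftpa1 and Sftpd is Mbl1, which encodes the serum lectin mannose-binding lectin A, a collectin made in liver. These reads were not assigned to it. The window thus ran from liver to lung, back to liver, and on to a weak lung excess.

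**Figure D4:**
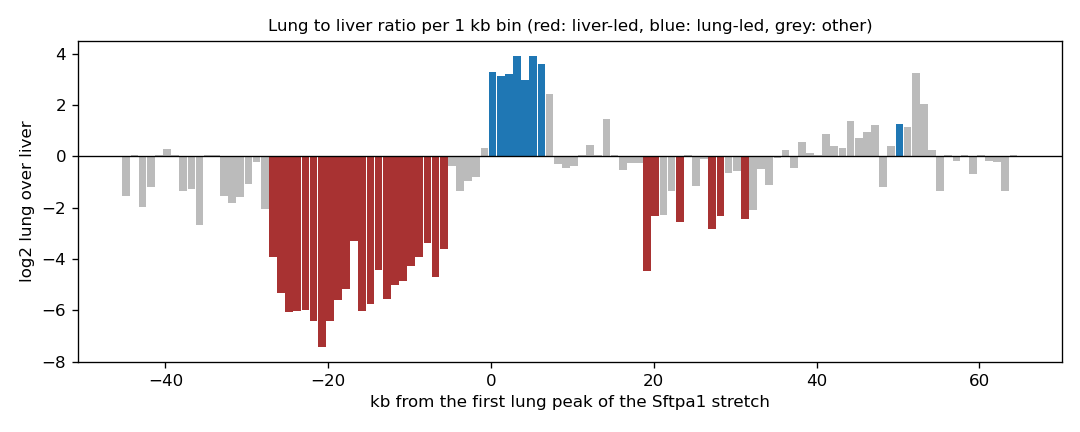
Log2 of normalised lung over liver reads, with counts under 3 set to 3, per 1 kb bin of the Mat1a, Sftpa1 and Sftpd window against the distance in kb from the first lung peak of the Sftpa1 stretch. Bars below 0 have more liver reads; liver-led bins are red, lung-led bins blue and the rest grey, and the sign changes between -3.62 and 3.29 across the gap of 5 kb.

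The lung signal was weakest in the area named after Sftpd, among those of the 4 surfactant genes. By the rule the Sftpd stretch was the last lung-led stretch of the window. It was a single bin from 41995000 with 14 lung reads, 6 in liver, 4 in spleen, 3 in brain and 1 in kidney. Lung was 2.07-fold over spleen there, with an interval of 0.651 to 8.64 that includes equal levels. The lung list pointed to a wider area. After the last liver peak position of the window, 41984096, lung had 6 further positions, up to 41998181, and no other library had any. The span of these, 13.4 kb from 41985031, was defined after the data were seen. Its start was set by the liver list and its extent by lung positions. The lack of liver positions was fixed by that choice, which also favours lung over liver, so its ratios are a description. The span held 193 lung, 108 liver, 81 spleen, 56 brain and 51 kidney reads.

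Over this span lung was 1.41-fold over spleen (1.08 to 1.85) and 1.84-fold over liver (1.45 to 2.35). Lung stood at 3.51 times its own mean, against 1.42 in liver, 1.20 in spleen, 1.07 in brain and 0.729 in kidney. The spleen library, the next by normalised count, was thus near its own genome mean. Of the 14 bins that the span touches 1 was led by lung, 7 with scaling by total reads and 5 with spleen left out, a setting under which lung led 1.97% of tested bins in the genome. The bin from 41997000 had the most lung reads, 28, with 10 in brain, 9 in spleen, 3 in kidney and 2 in liver. It missed the call at 1.84-fold over spleen and passed at 2.66-fold with scaling by total reads. At the last lung position, 41998181, the medians were -193 bases for 18 forward reads and 193 bases for 11 reverse reads. Just before the span, from 41980000 to 41984999, lung and liver both had peak positions, and neither led a bin.

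Set side by side per kb, the lung levels were 94.4 normalised reads in the Sftpb stretch, 67.7 in the Sftpc stretch, 54.3 in the Sftpa1 stretch and 12.8 in the Sftpd span. The same libraries held 9.002 to 14.4 in spleen, 4.07 to 14.3 in brain, 4.92 to 16.3 in liver and 3.51 to 10.9 in kidney. As levels of whole stretches, lung did not overlap the other libraries in the first 3 stretches. These were joined from bins called for a lung lead, so that separation was built in. Single bins could overlap, as in the bin from 70924000 of the Sftpc stretch, with spleen at 24.0 and lung at 16.9. In the Sftpd span the lung level was below the 16.3 that liver reached in the Sftpc stretch. The levels are of stretches whose length was set by the reads, which favours high values. Split at the last liver peak position, the Sftpc stretch had lung at 81.4 up to that bin and 44.8 past it. The latter is below the Sftpa1 level, so the order of Sftpc and Sftpa1 depends on the part taken.

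**Figure D5:**
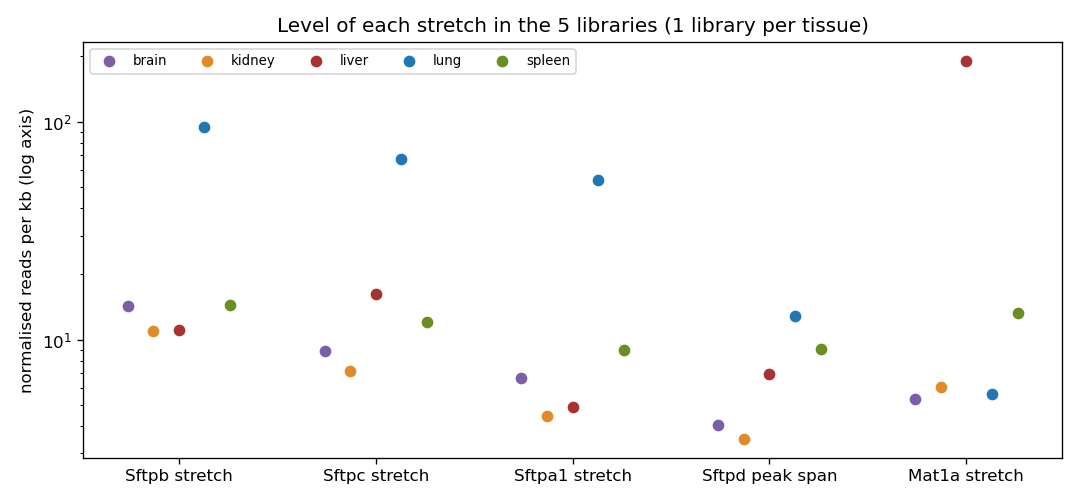
Normalised reads per kb on a log axis for each stretch, with 1 point per tissue and no error bar since each tissue has 1 library. Lung is the highest library in the Sftpb, Sftpc and Sftpa1 stretches and narrowly in the Sftpd span at 12.8, and liver is the highest in the Mat1a stretch at 189.5.

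Against the rest of the genome, the long lung stretches were uncommon. Of 2284 lung-led stretches, whose median was 1.0 bin, 25 were at least as long as the Sftpb stretch and 13 held as many lung reads, counting itself in both. The Sftpc stretch was matched or passed in length by 15 and in reads by 19, itself included. For the Sftpa1 stretch these numbers were 83 and 66. Of 11903 liver-led stretches, 128 were as long as the Mat1a stretch or longer and 28 held as many liver reads. The windows together held 35 lung-led and 29 liver-led bins. The ranks, too, were not taken again with scaling by total reads. The genes were picked for these reads, so no support is drawn from the ranks.

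Regions outside the windows with like proportions were sought by the Euclidean distance between the shares of the 5 normalised counts, among 6753 peak regions with at least 50 lung reads. Each rests on 5 libraries only. The Sftpc region with the most lung reads, from 70921921 to 70923221, had 70.3% of its normalised reads in lung and 16.3% in spleen. The region most like it lay on chromosome 15 from 100964781 to 100965281, with 50 lung reads, 68.1% of the normalised total, at a distance of 0.0438. The next, on chromosome 5 from 53460386 to 53460886, had 69.9% in lung. The region at the start of the Sftpa1 stretch had 59.7% in lung, and that most like it, on chromosome 7 from 19886876 to 19887876, had 58.4%. The Sftpb region with the most lung reads, from 72261501 to 72264301, had 50.8% in lung, and that most like it, on chromosome 12 from 112997506 to 112998416, had 53.1%. This Sftpb region is wide, merged from positions of several tissues, and reaches into the bin of the lung trough. It does not hold the strongest lung position, 72254901, so its share is not that of the Sftpb maximum. On chromosome 10, the region from 79452461 to 79453011 was at rank 3 in likeness to the Sftpc region. A separate region close to it, from 79449911 to 79450861, was at rank 2 for Sftpa1. No gene was attached to these positions.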

How the data were processed

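Chromatin of formaldehyde-treated tissue was precipitated with an Abcam antibody to RNA polymerase II, per the labels' protocols. The authors deposited 1 list of aligned reads and 1 list of peak positions per tissue. Bowtie aligned the reads, per the submitters' processing notes. Its settings, the genome build, the peak caller and any control library were not given in the sources used here. Reads extend past the last gene of chromosome 7 in the GRCm38 table, so that table served only for names, gene order and promoter sequence.

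Reads of 34 to 36 bases were counted at their 5′ end. Peak positions were extended by 250 bp and merged to 186413 regions, of which 8222 with at least 20 reads in every tissue gave the scaling factors as medians of ratios. Relative to these, scaling by total reads shifts log2 levels by -0.67 (spleen), 0.38 (lung), 0.32 (brain), -0.04 (liver) and -0.02 (kidney). Counts under 3 were set to 3 before bins were called. Fold intervals are 95% exact conditional binomial intervals of raw counts. No p-value was computed. The calling of bins was tested on simulated data. Named items are the members, the 3 bins with the most reads of the leading tissue, peak positions of lung and liver, and the regions of most like shares. The genes, windows and lists were chosen with earlier results of these data known. Lists of alveolar, hepatocyte and other marker genes need an annotation of the files' build and were not analysed here, so the tissue labels were not checked beyond these windows. SciPy 1.17.1, NumPy 2.4.6, Matplotlib 3.10.9 and pandas 2.3.3 ran under Python 3.11.15.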

Additional observations from a re-analysis of the deposited data

How the results depend on the processing

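No fold or log2 ratio changed direction under any alternative tried, and counts of bins have no direction to change. The windows and stretches were picked for the lead of a tissue and kept in place, which made a reversal unlikely. Leaving out spleen can only keep or raise a fold over the next tissue. The lack of reversals is therefore no support. Of 50 values, 39 stayed within the counting interval of the reported value or, for counts of bins, within 1.5 times of it. All 11 values that moved were folds or log2 ratios. The interval of the Sftpd stretch, 0.651 to 8.64, was wide, and leaving out spleen could not alter the Sftpc fold over liver. Subtracting the genome mean of each library gave a lung fold over the next tissue of 7.57 in the Sftpb window, 2.93 in the Sftpc window and 17.5 in the Sftpa1 stretch, and a liver fold of 32.5 in the Mat1a stretch. The log2 ratio of lung over liver was then -6.53 in the Mat1a stretch and 7.10 in the Sftpa1 stretch, the latter with liver at the floor of 3 reads. Scaling by total reads gave 4.61 in the Sftpb window, 22.1 in the Mat1a stretch and a log2 ratio of -4.65 in the latter. Leaving out spleen gave 3.92 and 31.2 in the same places. Lung-led bins in the windows numbered 25 to 48 and liver-led ones 22 to 39 over the alternatives. The Sftpd span, chosen after the data were seen, gave 1.41. No paired analysis was possible because each tissue had 1 library. Without replicates or an input library, variation between animals and local background were not measured.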
